A study of Bos taurus with 2 samples.

Results

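Melanophilin, RAB27 and myosin V form a system that carries melanosomes and secretory granules along actin, and it was described here in the muzzle of a light-muzzle and a dark-muzzle HanWoo cow, the native cattle of Korea. The set held 10 genes, namely the small GTPases RAB27A and RAB27B, the effectors MLPH, MYRIP, SYTL1, SYTL2 and SYTL4, and the motors MYO5A, MYO5B and MYO5C. Members were found by gene symbol, through the transcript accession that each probe carries and a RefSeq gene table. This gave 4 genes with 9 probes (MLPH, SYTL2, RAB27A and RAB27B), out of 9647 genes with a symbol and 43639 probes on the array, while MYRIP, SYTL1, SYTL4 and the 3 myosin V genes were not analysed here. Both cows were females of 30 months and the strain Hanwoo. They are labelled by nose tissue colour, Yellow for the light muzzle and Black for the dark muzzle, and no treatment is given. Whole tissue from the front of the muzzle was taken, which can hold epidermis, glands, muscle, vessels and nerve. Total RNA of each cow was read on 1 Agilent bovine array with a single dye, and both arrays lay on 1 slide. With 1 array per group there was no replicate check and no test was made. Every difference given here is that of a single pair of cows, and its precision is limited by the number of arrays.

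In melanocytes, RAB27A in its GTP form sits on the melanosome and binds MLPH, and MLPH in turn binds the motor MYO5A, which holds the melanosome in the actin-rich edge of the cell. Loss of any of these proteins leaves melanosomes clumped around the nucleus and gives a dilute coat in mice. The same GTPases, with other effectors of the synaptotagmin-like (SYTL) family, tether granules to the plasma membrane in gland cells, leukocytes and platelets before secretion.

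The values below start from the processed signal, the brightness of a spot after Agilent's software had subtracted its background. A level is the log2 of that signal minus the 75th percentile of the array, and a log2 ratio is the level of the dark-muzzle cow minus that of the light-muzzle cow. The software gives each spot an error of its own, which covers the spot and not the animal. For bright spots this error is a nearly constant share of the signal, so it is not a spread measured over repeats. Noncontrol spots were well above background at a share of 78.8% for the light muzzle and 81.9% for the dark muzzle, and 0 were saturated. The SD of the log2 ratio had a median of 0.049 between spots of 1 probe (43 probes) and of 0.18 between probes of 1 transcript (7661 transcripts). All 9 probes of the members were well above background on both arrays, so each of them had a measured ratio.

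MLPH, the linker between RAB27A and myosin V, was lower 11.4-fold in the dark-muzzle cow, whereas the log2 ratio of RAB27A, 0.0065, was smaller than the error of its spots. RAB27B was 1.78-fold higher and SYTL2 1.67-fold lower in the dark-muzzle cow, both short of 2-fold. Of the 9 probes, 3 were at least 2-fold lower, against 7.17% of all probes with a ratio, and 0 were at least 2-fold higher, against 9.76%. By gene, 1 of 4 was at least 2-fold lower, against 6.47% of all genes with a ratio, and 0 of 4 higher, against 9.86%. The median log2 ratio of the 4 genes was -0.37, and that of all 8914 genes with a ratio was 0.065. MLPH is among the genes that the study listed from these same arrays, so its difference is not independent evidence. The study also measured its listed genes by real-time RT-PCR in larger groups of dark-muzzle and light-muzzle cows, which are not part of the data used here.

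**Figure D1:**
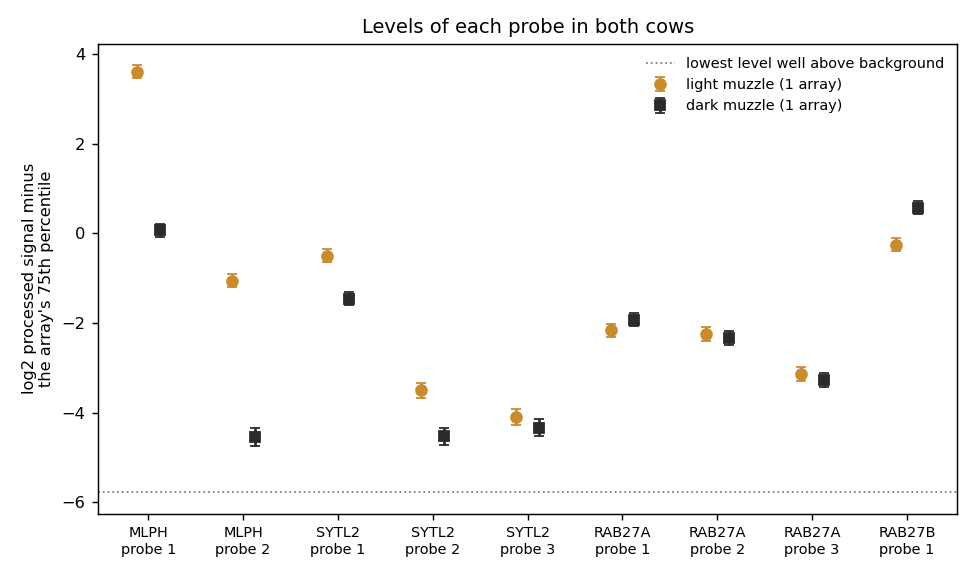
Level of each of the 9 probes (log2 of the processed signal, less the array's 75th percentile) in the light-muzzle cow (circles) and the dark-muzzle cow (squares), 1 array each, with bars for the software's error of the spot. Both probes of MLPH lie about 3.5 lower in the dark-muzzle cow, those of RAB27A overlap within their bars, and all points lie above the dotted line, the lowest level well above background. Levels of different probes are not comparable with each other.

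MLPH was read by 2 probes of the accession NM_001081597, which lay far apart on the array. The brighter probe, A_73_107222, had a processed signal of 13867 ± 1387 (error of the spot, n = 1) for the light muzzle and of 1188 ± 119 for the dark muzzle. Its log2 level was 3.60 for the light and 0.063 for the dark muzzle, which gave a log2 ratio of -3.54 with an error of 0.20. The dimmer probe, A_73_P317496, gave 547 ± 54.9 for the light muzzle and 48.9 ± 6.92 for the dark muzzle. Its log2 ratio was -3.48 with an error of 0.25. The 2 ratios differed by 0.061, less than either error, although the probes differ greatly in brightness. In the dark-muzzle cow the median pixel signal of the dimmer spot was 102, over a local background of 17.5, so this probe gives the less certain value of the pair. Only 0.32% of all probes measured on both arrays had a ratio as low as that of the brighter MLPH probe, and 0.34% one as low as that of the dimmer. By gene, MLPH ranked 33rd from the lowest of 8914. The 18 measured spots around the brighter probe had a median log2 ratio of -0.17, and the 18 around the dimmer one a median of 0.19.

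**Figure D2:**
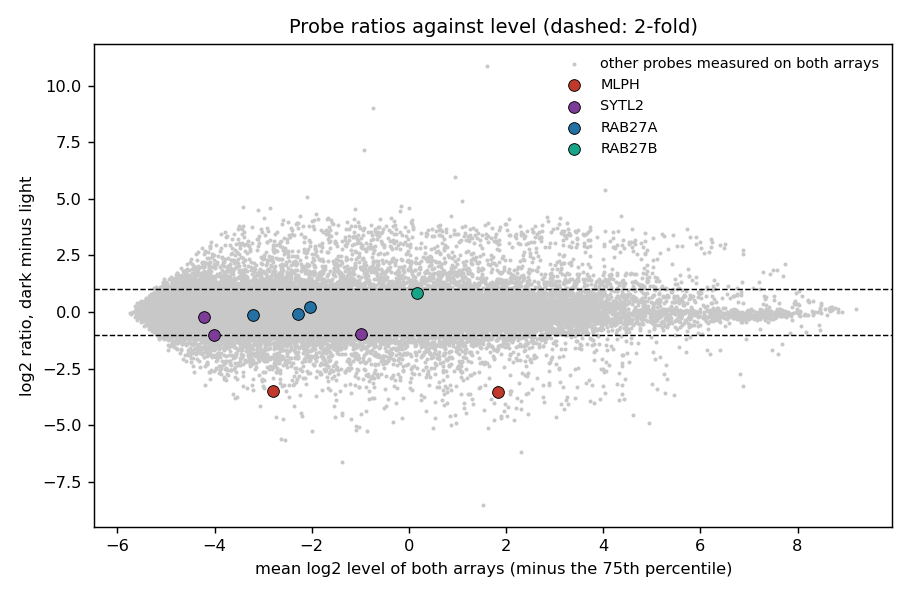
Log2 ratio (dark minus light) against the mean log2 level of both arrays for every probe measured on both (grey), with the 9 probes of the members in colour and dashed lines at 2-fold. The MLPH probes lie at -3.54 and -3.48 at different levels, below most of the grey cloud, and the RAB27A probes lie within it around 0.

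RAB27A, the GTPase that recruits MLPH to the melanosome, was read by 3 probes of NM_001101270. Probe A_73_P291031 had a processed signal of 256 ± 26.02 for the light muzzle and of 299.6 ± 30.3 for the dark muzzle. Probe A_73_P037311 gave 241 ± 24.8 for the light muzzle and 226 ± 23.3 for the dark muzzle. Probe A_73_P204722 gave 129 ± 13.6 for the light muzzle and 118 ± 12.5 for the dark muzzle. One probe was thus slightly brighter and the other two slightly dimmer in the dark-muzzle cow, with log2 ratios of 0.24, -0.087 and -0.13. Their mean was 0.0065 with an error of 0.12 from the spots and an SD of 0.20 over the probes (n = 3), so that no difference between the cows could be told from the error.

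RAB27B, a close relative of RAB27A known from secretory cells and platelets, was read by 1 probe of NM_174738. Its processed signal was 956 ± 95.7 for the light muzzle and 1693 ± 169 for the dark muzzle. The log2 ratio of 0.83, with an error of 0.20, was larger than the error of its spots, but 11.0% of all measured probes had a ratio as high, and no second probe was at hand. The ratio of RAB27B was 0.83 above that of RAB27A, with an error of 0.24 from the spots alone. A constant shift of either array cancels in this difference.

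SYTL2 is an effector that tethers RAB27 organelles to the plasma membrane. Its 3 probes carry NM_001102278. The brightest, A_73_114883, had a processed signal of 806 ± 80.7 for the light muzzle and of 412 ± 41.5 for the dark muzzle. Probe A_73_P326551 gave 101 ± 11.1 for the light muzzle and 49.2 ± 6.75 for the dark muzzle. Probe A_73_P266981 gave 66.6 ± 8.24 for the light muzzle and 56.2 ± 7.45 for the dark muzzle. All 3 were lower in the dark-muzzle cow, the first and second by close to 2-fold and the third by less than its error, with log2 ratios of -0.96, -1.03 and -0.24. The gene ratio was -0.74 with an SD of 0.44 over the probes (n = 3), more than the median SD of 0.18 between probes of a transcript. A gene ratio as low as this was found for 10.04% of all genes. The probe at -1.03 had a ratio of -0.43 under another background correction, normexp (a model that keeps dim signals positive). An offset of 50 is added to each signal there, which by itself shrinks the ratios of dim probes. The place of this probe past 2-fold thus depends on the processing.

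MLPH differed from the other members by more than the error of their spots. MLPH was lower than RAB27A by a log2 difference of -3.51 with an error of 0.20. MLPH differed from SYTL2 by -2.77 with an error of 0.21, and from RAB27B by -4.34 with an error of 0.26. These are differences between ratios, in which a constant shift of a whole array cancels. Their errors come from the spots alone. The spread over probes, with an SD of 0.44 for SYTL2 and 0.20 for RAB27A, is left out of them.

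The wider transport machinery was taken from 4 lists. Of 6 further RAB27 effectors, RPH3AL (Noc2, an effector of granule secretion) was measured, with a log2 ratio of -0.42 from probes at -0.75 and -0.089. RPH3A was well above background in neither cow. Of 9 genes of the RAB27 cycle, 5 were measured and 0 passed 2-fold in either direction, with a median log2 ratio of 0.27. The subunits of the enzyme that attaches the lipid anchor to Rab proteins, RABGGTA and RABGGTB, had log2 ratios of 0.40 and 0.44. TBC1D10A, which turns RAB27A off, had a ratio of 0.27, which is the list median itself. It rests on 1 dim probe, with 48.0 ± 6.89 for the light muzzle and 57.6 ± 7.52 for the dark muzzle. GDI2, which extracts Rab proteins from membranes, lay at 0.086. TBC1D10C had the lowest ratio of this list, -0.70, but its probes disagreed, at -1.33 and -0.064.

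Of 14 myosin V and actin partners, 7 were measured, 0 passed 2-fold and the median log2 ratio was -0.12. DYNLL2, a light chain of MYO5A, had a ratio of -0.50 and its relative DYNLL1 one of 0.22. ACTN1, an actin crosslinker, was lowest at -0.67 and MAPRE1, which binds growing microtubule ends, was highest at 0.28. MYO1A lay at -0.51 and MYL6 at 0.13.

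Other Rab GTPases of secretion and melanosomes formed a list of 17 genes, with the RAB11 partners RAB11FIP1 and RAB11FIP2 among them. Of these, 8 had a ratio, all of them Rab GTPases, with a median of 0.38. RAB26, a Rab of granule maturation in acinar gland cells, was 12.3-fold dimmer for the dark muzzle and the only one of the 8 at least 2-fold lower. Its single probe had a processed signal of 6669 ± 667 for the light muzzle and of 538 ± 54.0 for the dark muzzle, which gave a log2 ratio of -3.62. This is lower than that of MLPH by less than the error of the MLPH gene ratio, 0.16. RAB3C, a Rab of regulated exocytosis, was the only one at least 2-fold higher. One of its probes was measured on both arrays with a log2 ratio of 1.12, and the other was seen above background for the dark muzzle alone, at least 1.33-fold higher. RAB11A, which moves recycling endosomes with MYO5B, lay at 0.83, its probes being at 0.81 and 0.85. RAB8B, a further Rab of exocytosis, lay at 0.53, RAB11B at -0.35 and RAB8A at -0.39. RAB3A and RAB3B were well above background in neither cow, and the 7 others, RAB32 and RAB38 among them, were not analysed here. Over these 4 lists, with 1, 5, 7 and 8 genes with a ratio, 1 gene was at least 2-fold lower and 1 at least 2-fold higher. Of all genes with a ratio, 6.47% were lower and 9.86% higher by that much. Counts this small cannot be told apart from those shares.

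**Figure D3:**
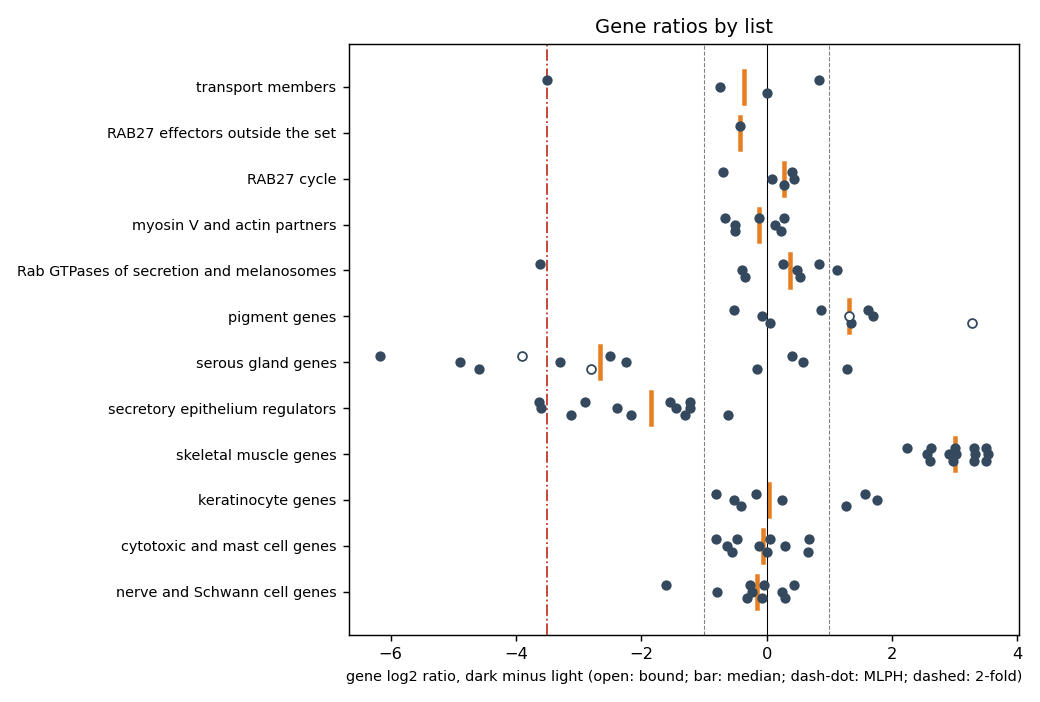
Log2 ratio (dark minus light) of each gene with a ratio, by list, with 1 point per gene, open points for genes with only a lower bound, and bars for list medians. MLPH (dash-dot line, -3.51) lies below every pigment gene and within the range of the serous gland genes, and of the wider transport lists only RAB26 lies beside it.

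MLPH was then set beside pigment and gland genes, in lists chosen with earlier results of these data known. Of all genes with a ratio, 6.47% were at least 2-fold lower and 9.86% at least 2-fold higher. Of 16 melanocyte genes, 9 had a ratio, of which 5 were at least 2-fold higher, 0 were at least 2-fold lower and the median log2 ratio was 1.31. MLPH lay 4.82 below that median, and none of the 9 had a ratio as low. The highest were TYRP1, a melanosome enzyme, with a lower bound of 3.28, PMEL, the melanosome matrix protein, at 1.70, and SLC24A5, a cation exchanger, at 1.62. The lowest were DCT, a further melanin enzyme, at -0.52, KIT at -0.072 and MC1R at 0.052. The probes of DCT disagreed, since its second probe was above background for the dark muzzle alone and was at least 1.45-fold higher there. The light-muzzle array showed TYRP1 and EDNRB not well above background, and without these 2 bounds the median was 0.86. The signal summed over the 15 probes of the list was 4127 for the light muzzle and 7559 for the dark muzzle. The 1 probe of PMEL gave 1064 of the light sum and 3435 of the dark sum. These sums thus say little about the other genes of the list. In whole tissue, fewer cells of a type and less RNA per cell cannot be told apart.

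Of 19 serous gland genes, 12 had a ratio, of which 8 were at least 2-fold lower and 1 was at least 2-fold higher, and the median log2 ratio was -2.65. MLPH lay 0.85 below that median, and 4 of the 12 had a ratio as low or lower. The lowest were MSMB at -6.18, PIP at -4.89 and LTF (lactoferrin) at -4.59, all secreted proteins. The highest were BPIFA1 at 1.29, LPO (lactoperoxidase) at 0.57 and LYZ (lysozyme) at 0.40. BPIFA1 rests on 1 dim probe, with 31.7 ± 6.39 for the light muzzle and 76.8 ± 9.45 for the dark muzzle. The probes of LYZ disagreed, at 0.78 and 0.032. SCGB1D, the brightest of the list, had a ratio of -0.15. The summed signal over 25 probes was 1828380 for the light muzzle and 1099690 for the dark muzzle. Most of both sums came from SCGB1D. Its probes ranged from 321655 to 463497 for the light muzzle and from 282081 to 421088 for the dark muzzle. The sums thus say little about the other genes of the list. CRISP2 and STATH had a bound because the dark-muzzle array did not show them well above background, and ODAM was not above it in either cow. The part of gland tissue in the difference of MLPH was not tested.

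Transcription factors and other genes of secretory epithelium made up a further list. Of its 19 genes, 12 were measured and 11 were at least 2-fold lower for the dark muzzle, 0 higher, with a median log2 ratio of -1.85. Of all genes with a ratio, 6.47% were at least 2-fold lower and 9.86% at least 2-fold higher. The list was chosen with earlier results of these data known, so its counts are not independent evidence. KRT7, a keratin of ducts and simple epithelium, was lowest at -3.63. TFF3, a secreted trefoil peptide, lay at -3.61 and SPDEF, a transcription factor of secretory cells, at -3.12. The highest were KRT19 at -0.62 and EHF and ELF5, both transcription factors of epithelium, at -1.22 each. The probes of KRT8 disagreed, from -3.25 to -0.18. CREB3L2, at -1.31, was also listed by the study from these arrays. The summed signal over 31 probes was 454843 for the light muzzle and 150031 for the dark muzzle, 3.03-fold less. KRT19, the least lowered gene of the list, gave 128822 of the light sum and 83045 of the dark sum with its 1 probe. The fold between the sums thus depends much on this gene.

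Markers of other cells that use this machinery or could be in the tissue were read on the same arrays. Among all genes with a ratio, 6.47% were at least 2-fold lower and 9.86% at least 2-fold higher. Of 10 genes of cytotoxic and mast cells, which secrete RAB27 granules, 0 passed 2-fold in either direction, and the median log2 ratio was -0.057. The probes of that list were dim, with a signal summed over 17 probes of 2165 for the light and 2071 for the dark muzzle. Its median thus says little about these cells. Of 10 nerve and Schwann cell genes with a ratio, 1 was at least 2-fold lower and 0 were higher, with a median of -0.15. Counts as small as those of the leukocyte and nerve lists cannot be told apart from the shares over all genes. Of 8 keratinocyte genes with a ratio, 3 were at least 2-fold higher and 0 lower, with a median of 0.035, and KRT5, KRT14 and KRT10 were well above background in both cows. All 14 skeletal muscle genes with a ratio were at least 2-fold higher for the dark muzzle, with a median of 3.01, and their summed signal was 5.93-fold higher there. How the muscle share bears on the ratios of the members was not tested.

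The genes most like MLPH were sought among 4898 other symbols with at least 2 probes, all measured on both arrays, by how near their log2 ratio lay to that of MLPH. This likeness rests on 2 arrays. The nearest was CLDN10, a tight junction claudin, at -3.55. It was followed by TFF3 at -3.61, PIGR, which carries antibodies across gland epithelium, at -3.29, FXYD2, a regulator of the sodium pump, at -3.75, and SPDEF at -3.12. PIGR is on the serous gland list, and TFF3 and SPDEF are on that of secretory epithelium. Both lists were chosen with earlier results of these data known, so this overlap is not independent evidence.

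**Figure D4:**
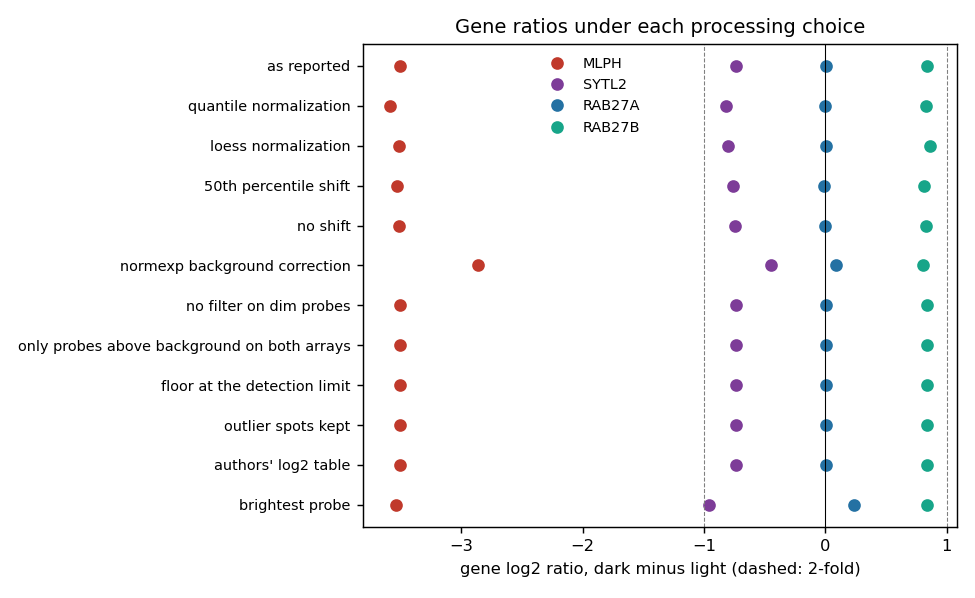
Gene log2 ratio (dark minus light) of MLPH, SYTL2, RAB27A and RAB27B as reported and under 11 other processing choices, with dashed lines at 2-fold. MLPH lies between -3.59 and -2.87 throughout, its highest value under normexp background correction, and the other genes stay within 2-fold.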

How the data were processed

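RNA of 1 light-muzzle and 1 dark-muzzle cow was read on 1-colour arrays. The authors deposited the output of Agilent Feature Extraction 10.7.3.1, whose processed signal is a spot intensity, detrended and with background subtracted. The authors also deposited a GeneSpring table of log2 values, which matched the log2 levels below within 0.00021 for singly spotted probes and used only as an alternative. Groups came from the labels.

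Here log2 levels minus the 75th percentile of noncontrol spots (signals of 1144 and 1137) were computed, without control spots and the 13 outlier spots per array. Probes well above background on 1 array only were given a bound against the higher of the lowest level well above background and their own dim level. A gene ratio is the mean over probes measured on both arrays, or the largest bound. Symbols came from RefSeq transcript accessions of the ARS-UCD2.0 assembly (20587 of 43639 probes), and no coordinate was used. No test was possible with 1 array per group.

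All members were named. From the other lists, the 3 highest and 3 lowest genes and transport genes past 2-fold were named. One further gene, first placed on the RAB27 cycle list and then taken off it, is not reported here. Muscle, keratinocyte, leukocyte and nerve lists are given by counts. Members, lists and settings were chosen with earlier results of these data known. Alternatives used limma 3.58.1 in R 4.3.3 (quantile, loess with span 0.3, normexp on median pixel signals with offset 50), and the rest pandas 2.3.3 and numpy 2.4.6 under Python 3.11.15. The steps were tested on simulated data.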

Additional observations from a re-analysis of the deposited data

How the results depend on the processing

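Values were called moved when they left the reported one by more than 0.18, the median SD between probes of a transcript. Under normexp background correction the log2 ratio of MLPH was -2.87 (probes -3.40 and -2.33), that of SYTL2 -0.45, the median of the members -0.18, that of the pigment genes 0.83, that of the serous gland genes -2.06, and MLPH minus the pigment median -3.69. There 2 member probes, both of MLPH, were at least 2-fold lower. Under quantile normalization the pigment median was 1.02, the gland median -2.89 and MLPH minus the pigment median -4.61. Under loess these were 1.05, -2.87 and -4.56, and MLPH minus the gland median was -0.64. With only probes above background on both arrays, the pigment median was 0.86, the gland median -2.38, and MLPH minus them -4.37 and -1.13. At 1.5-fold, 2 member genes were lower (MLPH and SYTL2) and 1 gene and 1 probe higher (RAB27B), and 4 probes were lower. With its brightest probe alone RAB27A had a ratio of 0.24 and SYTL2 one of -0.96. No value past 2-fold changed direction under the alternatives run, and MLPH stayed between -3.59 and -2.87. The mean of RAB27A, near 0, turned negative under some scalings (lowest -0.014). The settings for RAB27A, RAB27B, SYTL2, RAB26 and the secretory epithelium list were chosen after seeing the data. No paired analysis was possible because each group has 1 array. Signal over background limits the dim probes of MLPH and SYTL2, and the offset added under normexp by itself shrinks their ratios.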
